A study of Mus musculus with 8 samples.

Results

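Astrocytes of the mouse cerebral cortex handle glutamate, potassium and water through the products of Slc1a2, Slc1a3, Glul, Gja1, Gjb6, Kcnj10, Kcnj16 and Aqp4. These genes and Aldoc, a gene of glycolysis, are the 9 examined here. They were taken by gene symbol, 9 of the 32285 genes listed for every library. Single-nucleus RNA counts came from cortex of C57BL/6J mice at postnatal day 25, either wild type (WT) or heterozygous for Chd8 (Chd8+/-), a chromatin remodeller. Each genotype had 2 males and 2 females with 1 library each, 8 libraries in all. The medial cortex had been dissected away and the tissue flash-frozen, and all 8 libraries were made with the 10x Genomics 3' kit, v3 chemistry. Single indexing was used for the 4 libraries numbered 1 and dual indexing for the 4 numbered 2. The labels describe litter- and sex-matched pairs of animals, but not the allele of Chd8.

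Astrocytes clear glutamate from synapses through the transporters encoded by Slc1a2 (GLT-1) and Slc1a3 (GLAST), and glutamine synthetase, encoded by Glul, turns it into glutamine for return to neurons. Potassium released by active neurons enters through inward rectifier channels, of which Kcnj10 encodes Kir4.1 and Kcnj16 its partner Kir5.1, and spreads through gap junctions built from connexin 43 (Gja1) and connexin 30 (Gjb6). Aquaporin 4 (Aqp4) carries water at the endfeet around blood vessels, and Aldoc encodes the brain isoform of the glycolytic enzyme aldolase.

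Cell types were assigned by marker genes, none of which is among the 9. Of 97772 barcodes, 82168 passed a minimum of 500 detected genes and a maximum of 5% mitochondrial unique molecular identifiers (UMIs). A nucleus was placed in a class by its summed marker UMIs, and one that also had at least 3 markers of another class and 0.5 times its threshold was called mixed and left out (6166). A few markers with many UMIs could therefore stay, and kept OPC had a median of 40.89 astrocyte marker UMIs per 10000, against a threshold of 50 for astrocytes. This gave 4596 astrocyte nuclei, 449 to 657 per library, beside 45991 excitatory neurons, 5565 inhibitory neurons, 3764 oligodendrocytes, 1763 oligodendrocyte precursors (OPC) and 3049 microglia. All 11 astrocyte markers were detected in astrocyte nuclei. There they summed to between 14630 and 17117 UMIs per 1e+06 UMIs of the class sum (CPM). Excitatory neurons had 413 CPM and OPC 4509. Astrocytes were selected by these same markers, so the difference is set by the selection and does not check it. Libraries held 69503598 to 98132783 UMIs each, and pairs of libraries shared 27 to 63 barcode sequences. Chd8 itself did not differ over all kept nuclei (log2 change -0.00, SE 0.07, edgeR adjusted p = 1.00). A 3' tag at an undescribed allele does not check the genotype labels.

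On GRCm38 the 9 genes lie on 7 chromosomes. Slc1a2 spans 132.13 kb of chromosome 2 (102658659 to 102790784, plus strand) and overlaps the antisense gene Gm13872, whose reads cannot be told apart from it without strand. Slc1a3 spans 76.64 kb of chromosome 15 (8634124 to 8710764, minus strand), and Glul spans 9.78 kb of chromosome 1 (153899944 to 153909723, plus strand). Glul and Aqp4 each also overlap 1 listed gene on the opposite strand, with the same limit. Gjb6 lies on chromosome 14, as Chd8 does, 4.87 Mb away. Because the 9 genes are high together in astrocytes, the RefSeq promoter windows (250 bases before to 50 after the start, GRCm38.p6) of the 2 transporters and of Glul are shown 5′ to 3′. Capitals mark TTGGC on either strand, 1 arm of the palindromic site of nuclear factor I, a family of transcription factors active in astrocytes.
Slc1a2: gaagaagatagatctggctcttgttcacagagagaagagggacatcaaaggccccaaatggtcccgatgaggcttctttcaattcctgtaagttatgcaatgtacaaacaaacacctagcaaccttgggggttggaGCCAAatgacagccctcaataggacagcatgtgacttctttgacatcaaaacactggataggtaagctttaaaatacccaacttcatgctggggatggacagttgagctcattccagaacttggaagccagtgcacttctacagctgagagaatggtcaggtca
Slc1a3: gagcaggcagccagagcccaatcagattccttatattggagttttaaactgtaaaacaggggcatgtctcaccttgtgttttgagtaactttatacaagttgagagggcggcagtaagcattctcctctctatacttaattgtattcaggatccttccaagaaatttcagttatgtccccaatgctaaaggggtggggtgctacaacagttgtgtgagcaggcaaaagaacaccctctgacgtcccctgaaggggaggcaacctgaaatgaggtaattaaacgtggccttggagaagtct
Glul: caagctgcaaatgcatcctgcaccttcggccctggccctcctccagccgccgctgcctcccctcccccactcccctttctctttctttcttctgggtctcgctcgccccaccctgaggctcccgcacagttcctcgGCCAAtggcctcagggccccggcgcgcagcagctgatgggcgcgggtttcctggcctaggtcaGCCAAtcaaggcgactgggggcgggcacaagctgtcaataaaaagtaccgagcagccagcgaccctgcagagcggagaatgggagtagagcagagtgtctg
The windows are chr2:102706188-102706487 (plus strand), chr15:8710758-8711057 (minus strand) and chr1:153899679-153899978 (plus strand). The Slc1a2 window lies inside the span given above. TTGGC was found once for Slc1a2, not for Slc1a3 and at 2 places for Glul. The 8 genes with an entry (Aqp4 has none) have 12 windows, of which 6 held it, against 46.71% of all 32851 windows. The whole site, both arms 5 bases apart, was in none of the 12 and in 0.04% of all windows. AACAAT, a SOX-type motif, was in none of the 12 and in 10.72% of all windows, while TTCNNNGAA, a STAT-type motif, was in 3 of the 12 and in 8.3% of all windows.

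All 9 genes were higher in astrocytes than in the mean of the other 5 classes. With edgeR's quasi-likelihood test the log2 difference ran from 2.30 (SE 0.11) for Kcnj10 to 5.50 (SE 0.11) for Gjb6, with a median of 3.81 against -0.08 over all 15151 genes tested. Of all genes tested 60.9% were called in this comparison and 27.6% were called higher in astrocytes. Against each other class singly, 7 of the 9 were called higher every time, where 35.1% of all genes were higher than in excitatory neurons, 32.9% than in inhibitory neurons, 27.3% than in oligodendrocytes, 23.2% than in OPC and 29.4% than in microglia. The 2 exceptions were the potassium channel genes, Kcnj10 against oligodendrocytes and Kcnj16 against OPC.

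**Figure D1:**
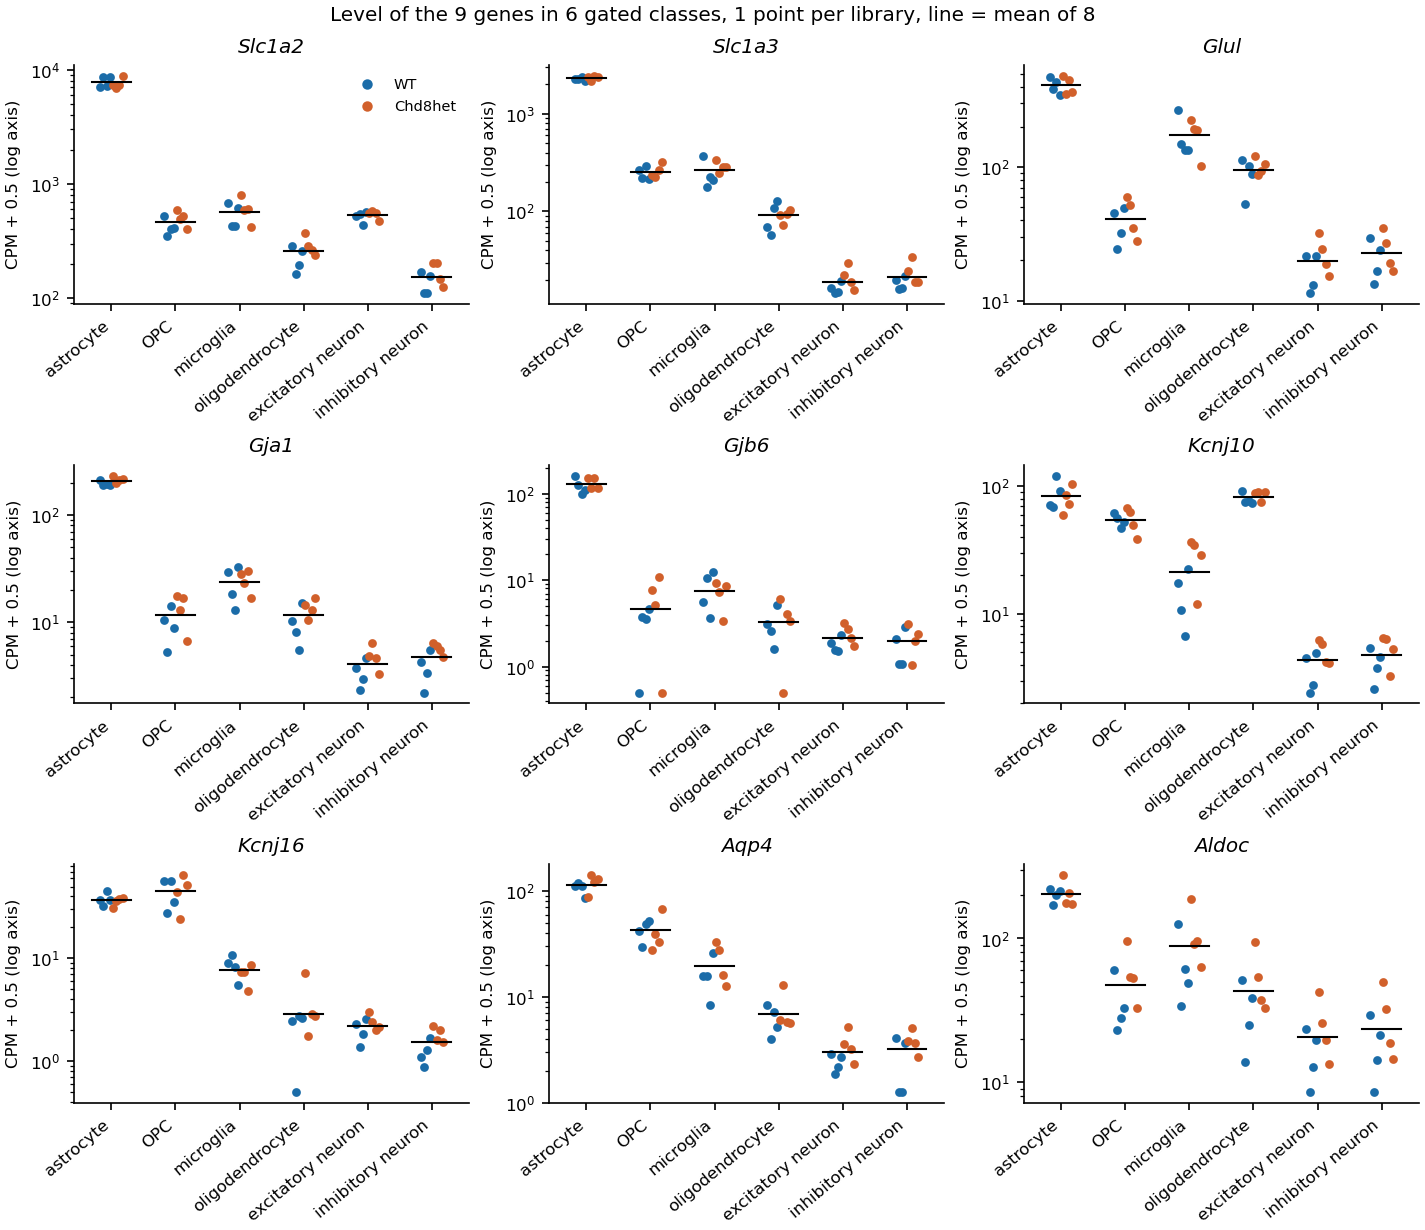
Level of each of the 9 genes (CPM + 0.5, log axis) in 6 classes of nuclei, 1 point per library (blue WT, orange Chd8+/-, written Chd8het), with a line at the mean of 8. Astrocytes stand apart from the other classes except for Kcnj10, where oligodendrocytes lie level and OPC overlap, Kcnj16, where OPC lie level, and Aldoc, where microglia overlap.

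Among the transporters, Slc1a2 measured 6993 CPM in the lowest astrocyte library, 7330 at the median and 8811 in the highest. Of the 5 other classes tested, microglia came next with a mean of 569 ± 135 CPM (SD, n = 8), and none of the 5 overlapped the 8 astrocyte libraries. Microglia were not told apart from excitatory neurons at 529 ± 48.6 CPM (exact sign-flip permutation test over 8 libraries, two-sided, p = 0.492). Microglia were the shallowest of the classes tested, with 1358.5 UMIs per nucleus as the median of the library medians. Endothelial and mural nuclei, too few for a test, had means of 597 and 572 CPM. Slc1a3 ran from 2137 through a median of 2320 to 2423 CPM in astrocytes, the smallest relative spread of the 9. It averaged 267 ± 65.1 CPM in microglia and 255 ± 37.4 in OPC, which were not told apart (exact sign-flip permutation test over 8 libraries, two-sided, p = 0.719). Of the classes tested, oligodendrocytes followed at 90.3 ± 23.4 CPM, then inhibitory neurons at 20.9 ± 5.91 and excitatory neurons at 18.5 ± 4.99. Fibroblast-like and mural nuclei, too few for a test, had means of 1113 and 101 CPM of Slc1a3.

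The 2 kinds of neuron differed in Slc1a2. Excitatory neurons had 529 ± 48.6 CPM of Slc1a2 and inhibitory neurons 152 ± 37.2 (SD, n = 8), with no overlap between their libraries. The log2 difference was 1.98 (SE 0.10, edgeR adjusted p = 1.79e-27, in a comparison where 59.9% of genes were called and 30.4% were higher in excitatory neurons). For Slc1a3 the same difference was -0.03 (SE 0.13, edgeR adjusted p = 0.870) and for Glul it was -0.05 (SE 0.11, edgeR adjusted p = 0.700). On CPM, which are scaled by total UMIs alone, both were slightly higher in inhibitory neurons in 8 of 8 libraries (exact p = 0.00781). The 2 results differ in both test and scaling, and the part of each was not tested. Kcnj16 was the other member called, 0.86 higher in excitatory neurons (SE 0.24, edgeR adjusted p = 0.00172), at 1.70 ± 0.486 against 1.03 ± 0.437 CPM. The number of Slc1a2 UMIs per Slc1a3 UMI was 3.38 ± 0.388 in astrocytes, 7.38 ± 0.955 in inhibitory neurons and 29.8 ± 5.41 in excitatory neurons (SD, n = 8).

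Glul, the enzyme that takes up what the transporters bring in, was less restricted. It measured 344 CPM in the lowest astrocyte library, 406 at the median and 479 in the highest. Microglia had 174 ± 54.9 CPM and oligodendrocytes 95.1 (from 52.6 to 121), and microglia were higher in 7 of 8 libraries (exact p = 0.0156). OPC had 40.3 ± 12.7 CPM and both kinds of neuron about 20 (19.3 ± 6.68 and 22.1 ± 7.47). Fibroblast-like and endothelial nuclei, too few for a test, had means of 388 and 152 CPM of Glul, against 409 in astrocytes. Aldoc ran from 170 through a median of 204 to 276 CPM in astrocytes. Among the other classes tested, microglia followed at 88.4 ± 50.1 and OPC at 46.8 ± 23.9. The untested endothelial, mural and fibroblast-like nuclei had means of 82.1, 67.0 and 59.4 CPM of Aldoc. The highest microglia library, at 189 CPM, overlapped the astrocyte range, although astrocytes were higher in each of the 8 libraries. OPC and oligodendrocytes (42.9 ± 24.5 CPM) were not told apart for Aldoc (exact p = 0.195). Its level in excitatory neurons varied widely over libraries, from 8.01 to 41.9 CPM.

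Both connexins were far higher in astrocytes than in any of the other 5 classes tested, and Gjb6 had the largest log2 difference of the 9 members. Fibroblast-like nuclei, too few for a test, had a mean of 231 CPM of Gjb6, against 130 in astrocytes, and 161 of Gja1. Endothelial nuclei, also too few, had 69.6 CPM of Gja1. Gja1 ran from 189 through 206 to 233 CPM in astrocytes and averaged 23.4 ± 7.19 in microglia, the next of the classes tested. Gjb6 ran from 99.7 through 122 to 162 CPM in astrocytes. In the 5 other classes its mean was between 1.46 CPM in inhibitory neurons and 7.08 in microglia, and none of its neighbours in that order was separated in all 8 libraries.

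Each potassium channel gene had 1 class of the oligodendrocyte lineage at a level not told apart from astrocytes, and the water channel gene had none. Kcnj10 ran from 59.5 through 78.3 to 121 CPM in astrocytes and from 74.0 through 82.3 to 91.1 in oligodendrocytes, so the 2 classes overlapped fully. The mean log2 difference between them was -0.00 ± 0.38 (SD, n = 8, exact sign-flip p = 1.0), and edgeR gave -0.09 (SE 0.13, adjusted p = 0.590). OPC were lower than oligodendrocytes in all 8 libraries, at 54.1 ± 9.42 CPM (exact p = 0.00781, the smallest that 8 libraries allow). Astrocytes were 0.71 above OPC on the log2 scale (SE 0.16, edgeR adjusted p = 0.000159), higher in 7 of 8 libraries. Kcnj16 measured 36.5 ± 4.39 CPM in astrocytes and 44.6 ± 14.8 in OPC, with OPC higher in 5 of 8 libraries (exact p = 0.219). It was at 7.20 ± 1.90 CPM in microglia and at 2.36 ± 1.92 in oligodendrocytes. Aqp4 ran from 84.9 through 115 to 141 CPM in astrocytes, and OPC came second at 42.1 ± 13.5 CPM, lower in all 8 libraries. The astrocyte markers themselves stood in OPC at 4509 CPM in sum, against 16064 in astrocytes. Their part in the OPC values was not tested.

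In single nuclei the 2 transporters were seen most often. When each nucleus was thinned to 1000 UMIs, which left out 58 shallower astrocyte nuclei, Slc1a2 had a UMI in 99.8% of 4538 astrocyte nuclei and Slc1a3 in 85.6%. Glul was seen in 33.3%, Gja1 in 18.8%, Aldoc in 18.2%, Gjb6 in 11.8%, Aqp4 in 9.74%, Kcnj10 in 7.93% and Kcnj16 in 3.68%. Without thinning, at a depth of 2551 UMIs (median of the library medians), the shares were higher, for example 63.4% for Glul and 22.9% for Aqp4. At least 2 members were seen in 95.2% of thinned astrocyte nuclei (92.0% to 97.5% over libraries), a share that the 2 transporters largely set, and the median was 3 of the 9. The share was 4.42% in excitatory neurons (thinned from 8476 UMIs, the median of the library medians), 10.0% in oligodendrocytes, 18.4% in OPC and 22.3% in microglia. For Kcnj10 the thinned share was 7.95% in oligodendrocytes, close to the 7.93% in astrocytes. For Kcnj16 it was 5.19% in OPC, above the 3.68% in astrocytes. For Aqp4 the thinned share in excitatory neurons was 0.372%, and for Slc1a2 it was 39.6%.

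RNA of the members was also present in barcodes that did not pass the filters for nuclei. Barcodes with under 500 detected genes numbered 3235. Almost all were in 6 libraries (145 to 1109 each, with 6 and 0 in WT female 2 and Chd8+/- male 2). The median of their library medians was 663 UMIs. A second kind, with 500 or more genes but over 5% mitochondrial UMIs, was examined after the first had been seen, because all 8 libraries held it (12369 barcodes, 572 to 2600 per library). In these mitochondria-rich barcodes Aldoc stood at 1251 ± 272 CPM (SD, n = 8), 612% of its astrocyte level. Glul stood at 979 ± 75.9 CPM, 239% of its astrocyte level, and Kcnj10 at 159 ± 13.5 CPM, 190%. All 3 were higher than in astrocytes in 8 of 8 libraries (exact sign-flip p = 0.00781 each). Between astrocytes and these barcodes edgeR called 78.7% of all genes, 37.6% higher and 41.1% lower in astrocytes. Kcnj16 was at 104% and Aqp4 at 81.2% of their astrocyte levels. Slc1a2 was at 67.6%, Gja1 at 43.7%, Gjb6 at 25.0% and Slc1a3 at 17.2%, each lower in 8 of 8 libraries (exact p = 0.00781).

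**Figure D2:**
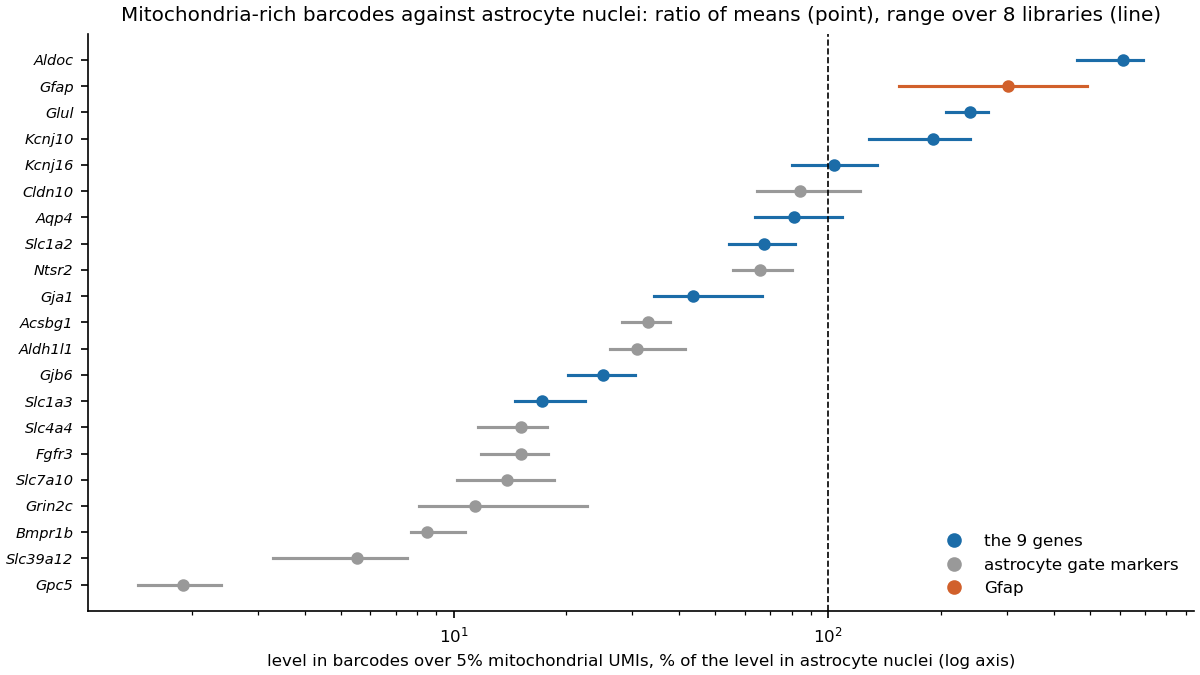
Level in mitochondria-rich barcodes as a percentage of the level in astrocyte nuclei (log axis) for the 9 genes (blue), the 11 astrocyte markers (grey) and Gfap (orange), with points at the ratio of means and lines over the 8 libraries. Aldoc (612%) and Glul (239%) lie far above 100%, and the markers run from 1.89% to 84.1%.

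Mitochondria-rich barcodes also held markers of other classes. Their summed marker UMIs, scaled as for the class thresholds, had medians of 45.45 for excitatory neurons, 20.89 for oligodendrocytes and 8.29 for astrocytes. Kept excitatory neurons had a median of 42.02 for their own markers, oligodendrocytes 198.22 and astrocytes 150.15. From which cells these barcodes came was not tested. The 11 astrocyte markers summed to 999 CPM in the mitochondria-rich barcodes, 6.22% of their sum in astrocytes, and none was at 0. Gpc5 made up 11849 of the 16064 CPM in astrocytes, and the median of the 11 single percentages was 15.2%. The 2 glutamate transporters thus parted, with 13.3 ± 1.12 Slc1a2 UMIs per Slc1a3 UMI in these barcodes against 3.38 ± 0.388 in astrocyte nuclei. The low-UMI barcodes of 6 libraries gave a similar order. Aldoc was at 376%, Glul at 128%, Kcnj10 at 118%, Aqp4 at 75.1%, Kcnj16 at 53.5%, Slc1a2 at 36.9%, Gja1 at 31.9%, Gjb6 at 24.0% and Slc1a3 at 11.2% of their astrocyte levels. Aldoc and Glul were higher and Slc1a2, Slc1a3, Gja1 and Gjb6 lower in 6 of 6 libraries (exact p = 0.03125, the smallest 6 libraries allow). After TMM scaling the astrocyte minus low-UMI difference of Glul was -0.05 (SE 0.12, edgeR adjusted p = 0.729), and among the 1660 low-UMI barcodes with at most 5% mitochondrial UMIs its mean log2 difference from astrocytes was -0.06. The higher level of Glul therefore holds for the mitochondria-rich barcodes, and for the low-UMI barcodes it depended on the test and scaling used and on the mitochondrial share. That of Aldoc stayed at -1.60 (SE 0.14, edgeR adjusted p = 3.49e-16, where 64.4% of genes were called and 29.2% were lower in astrocytes).

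Gene span was set beside this order. Aldoc, the shortest of the 9 (4.81 kb), was relatively highest in mitochondria-rich barcodes, and the marker Gpc5, the longest gene of the plot (1433 kb), was at 1.89%. Over the 21 genes plotted Spearman's rho between span and percentage was -0.477, and over the 9 members -0.517. These are descriptions over genes that share the same libraries. Many genes departed from that order, among them Gjb6 at 10.31 kb and 25.0%, Slc1a2, the longest member, at 132.13 kb and 67.6%, and the marker Cldn10 at 87.58 kb and 84.1%. The part of span in the result was not tested.

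Set against the mitochondria-rich barcodes, the members were low in both kinds of neuron. In inhibitory neurons their levels were 1.83% (Aldoc) to 5.27% (Slc1a3) of those barcodes, a spread of 2.87-fold over the 9. In excitatory neurons 8 members lay between 1.61% and 5.02%, and Slc1a2 stood above them at 10.1%. Slc1a2 was at a similar level in microglia (10.8%) and OPC (8.77%). In oligodendrocytes Kcnj10 stood out at 51.6% against 3.43% to 22.8% for the rest. In OPC the standing genes were Kcnj16 at 118%, Slc1a3 at 64.2%, Aqp4 at 45.8% and Kcnj10 at 34.0%, while Glul and Aldoc lay at 4.12% and 3.74%. In microglia the members ran from 7.07% (Aldoc) to 67.2% (Slc1a3). Whether the low neuronal values, or those of microglia, are RNA of the cells themselves or RNA taken up from outside was not tested.

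**Figure D3:**
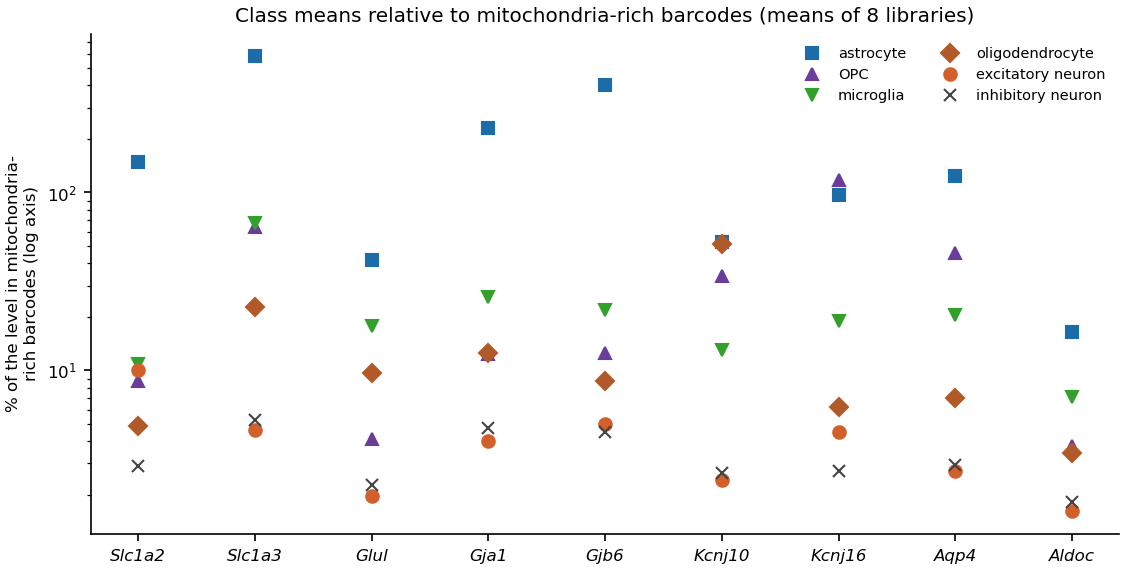
Mean level of each gene in each class as a percentage of its mean level in mitochondria-rich barcodes (log axis, means of 8 libraries). Inhibitory neurons (crosses) stay within 1.83% to 5.27%, and Slc1a2 in excitatory neurons (circles) lies above the other genes of that class at 10.1%. For Slc1a2, microglia lie at 10.8% and OPC at 8.77%.

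Genotype was compared first within astrocytes, to ask whether the Chd8+/- label went with a change in RNA of these genes. None of the 9 members was called, and neither was any of the 11755 genes tested (0% called, edgeR quasi-likelihood with Benjamini-Hochberg adjustment). Of all genes 288 (2.45%) had an unadjusted p under 0.05, and none of the members did. The labels do not name the matched pairs, so libraries of the same sex and number, which also share index type, were taken as pairs. With these assumed pairs as a block the share was 5.62% (684 of 12181 genes), again with no member. DESeq2 called 0 genes as well, with 99 at an unadjusted p under 0.05. In that blocked model 1 gene was called (0.00821%), Ddo, which encodes D-aspartate oxidase. Its log2 change was -1.01 with an adjusted p = 0.0152 in that edgeR model, and its adjusted p was 0.510 without the block.

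With the libraries ordered as males 1 and 2, then females 1 and 2, WT astrocytes had Slc1a2 at 7131, 8625, 7204 and 8680 CPM. Chd8+/- astrocytes, ordered alike, had 7358, 6993, 7302 and 8811 CPM. The groups overlapped, and the log2 change (Chd8+/- minus WT) was -0.08 (SE 0.13, edgeR adjusted p = 1.00). Slc1a3 measured 2277, 2275, 2362 and 2177 CPM in WT and 2399, 2137, 2423 and 2384 in Chd8+/- libraries, a log2 change of 0.02 (SE 0.11). Glul measured 468, 383, 429 and 344 CPM in WT and 479, 352, 451 and 367 in Chd8+/-, a log2 change of -0.00 (SE 0.14). In both genotypes Glul was high in single-indexed and low in dual-indexed libraries without overlap. The share of all genes without such overlap was not computed. For index type, which is the same as replicate number here, the log2 change of Glul was -0.30 (SE 0.10, edgeR adjusted p = 0.0675), not called. In that comparison 8.1% of genes were called and 24.2% had an unadjusted p under 0.05.

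Gja1 measured 214, 189, 196 and 189 CPM in WT and 233, 199, 213 and 219 in Chd8+/-. It was higher in Chd8+/- in 4 of 4 assumed pairs, although the groups overlapped and its log2 change of 0.11 (SE 0.12) was not called. The share of all genes with such agreement over pairs was not computed. Aqp4 had the largest log2 difference of the 9, 0.17 (SE 0.17), not called, from 110, 118, 111 and 84.9 CPM in WT to 87.6, 141, 122 and 131 in Chd8+/-, higher in 3 of 4 pairs. With 1 library left out at a time it ran from 0.062 (without Chd8+/- male 2) to 0.326 (without Chd8+/- male 1), and over all 19 settings its lowest unadjusted p was 0.0477, with no setting calling it. The changes of the others were 0.10 (SE 0.16) for Gjb6, -0.13 (SE 0.18) for Kcnj10, -0.09 (SE 0.16) for Kcnj16 and 0.02 (SE 0.16) for Aldoc. The median over the 9 was 0.02 and over all genes 0.01. Counts were also simulated at this depth, with the same assumed dispersion for all genes and no difference by index type or pair. The test recovered 74.3% of randomly chosen genes changed 2-fold and 21.4% of those changed 1.5-fold. Even in that setting many 1.5-fold shifts were missed. The rates do not give the power for the 9 members in the real libraries. Sex by genotype was called for no member and for 0% of all 12181 genes (264 at an unadjusted p under 0.05).

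**Figure D4:**
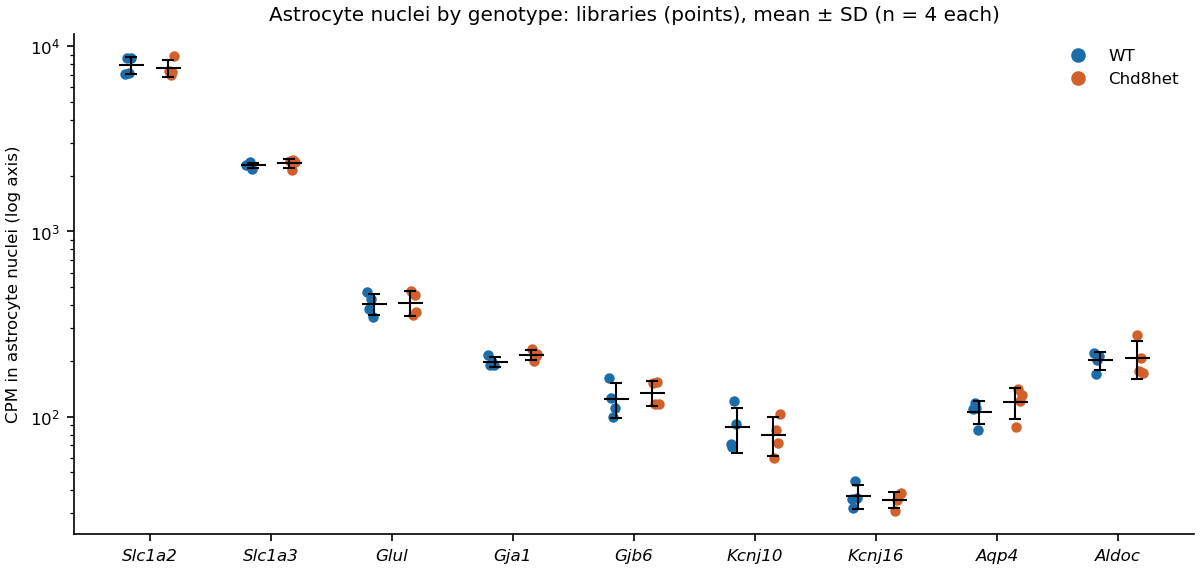
Level of each gene in astrocyte nuclei (CPM, log axis) for each WT (blue) and Chd8+/- (orange, written Chd8het) library, with mean ± SD (n = 4 each). The genotypes overlap for each of the 9 genes.

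Outside astrocytes no member was called in any of the 5 classes, where 0% of genes were called. With the pairs as a block, 4 genes were called in inhibitory neurons (0.0266%) and 2 in microglia (0.0203%), none of them a member. The log2 change of Aldoc was 0.54 (SE 0.40) in excitatory neurons, 0.50 (SE 0.38) in inhibitory neurons, 0.66 (SE 0.35) in oligodendrocytes, 0.69 (SE 0.28) in OPC and 0.64 (SE 0.32) in microglia, all with edgeR adjusted p = 1.00. Summed over all other gated nuclei, the 9 changes ran from 0.05 for Slc1a2 to 0.55 for Aldoc. The difference between the genotype change in astrocytes and in those other nuclei ran from -0.13 (SE 0.15) for Slc1a2 to -0.61 (SE 0.20) for Aldoc. None was called (0% of 21521 genes). An unadjusted p under 0.05 was reached by 3 of the 9 (Aldoc, Gja1 and Kcnj10) and by 862 of all genes (4.01%).

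Aldoc in excitatory neurons was lowest in 2 of the WT libraries, which also held the fewest mitochondria-rich barcodes. In the order used above, WT libraries had 23.0, 8.01, 12.2 and 19.1 CPM, beside 1795, 572, 672 and 1994 mitochondria-rich barcodes. Chd8+/- libraries had 41.9, 25.4, 19.0 and 12.8 CPM, beside 2303, 2600, 1121 and 1312 such barcodes. Within those barcodes themselves the members did not differ by genotype, with log2 changes from -0.11 for Glul to 0.24 for Gjb6 and 0% of genes called (0.00804% with the pairs as a block, no member). The part of carried RNA in the neuronal values was not tested.

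The share of astrocytes among gated nuclei was 7.05% ± 0.31 in WT and 6.96% ± 0.72 in Chd8+/- (SD, n = 4 each). The difference of -0.084 percentage points had an exact permutation p = 0.886 (two-sided, smallest possible 0.0286). Within single-indexed libraries it was -0.572 points and within dual-indexed libraries 0.404.

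Among astrocytes, Aqp4 was higher in nuclei with a Gfap UMI. Gfap marks fibrous and reactive astrocytes, and after thinning to 2000 UMIs it was seen in 206 nuclei and not in 3256. Gfap stood at 302% of its astrocyte level in mitochondria-rich and at 279% in low-UMI barcodes, and its thinned share (1000 UMIs) was 3.37% in astrocytes and 0.376% in excitatory neurons. The part of carried Gfap RNA in these groups was not tested. Aqp4 stood at 279 CPM (115 UMIs) in Gfap-positive and 104 CPM in Gfap-negative nuclei, higher in 8 of 8 libraries, with a log2 difference of 1.22 (SE 0.18, edgeR adjusted p = 9.70e-09). Gjb6 stood at 87.4 CPM (36 UMIs) against 139, higher in 0 of 8 libraries, a difference of -0.84 (SE 0.25, adjusted p = 0.0233, edgeR). This call was lost without Chd8+/- male 1 (edgeR adjusted p = 0.0834) or without Chd8+/- male 2 (edgeR adjusted p = 0.0562). With Slc1a3 (-0.39, SE 0.07) and Slc1a2 (-0.21, SE 0.06), 4 of the 9 members were called, where 3.27% of genes were called (0.88% higher and 2.39% lower). With library totals in place of TMM factors, chosen after seeing the data, only Aqp4 of the 9 was called, at 1.39 with 2.22% of genes called (1.41% higher and 0.806% lower). Thinned to 1000 UMIs Aqp4 was at 0.54 with TMM (edgeR adjusted p = 0.254), where the median of all genes was -0.54, and at 1.21 with library totals (edgeR adjusted p = 0.0146, with 1.05% of genes called). With library totals at 2000 UMIs Slc1a2 was at -0.04 (edgeR adjusted p = 0.888) and Slc1a3 at -0.22 (edgeR adjusted p = 0.0616). Gjb6 was still at -0.67 (SE 0.25) but not called (edgeR adjusted p = 0.181).

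The wider pathways were followed in 5 lists, set against 27.6% of all genes higher and 33.3% lower in astrocytes. Of the 13 tested genes for glutamate and GABA handling, 7 were higher in astrocytes and 4 lower, with a median log2 difference of 2.02. They were led by Slc7a11, the cystine-glutamate exchanger (5.35, SE 0.10), Slc38a3, a glutamine transporter (5.20, SE 0.13), and Slc6a11, a GABA transporter (4.49, SE 0.08). Of 11 genes for potassium and ion balance 7 were higher and 2 lower, among them the sodium pump subunit Atp1b2 (3.19, SE 0.07) and the pump regulator Fxyd1 (2.47, SE 0.14). Of 11 endfoot and water genes 10 were higher and 1 lower, led by the aquaporin Aqp9 (6.02, SE 0.22) and by Hepacam (3.84, SE 0.06) and Mlc1 (3.68, SE 0.12), partner proteins of the astrocyte membrane.

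Of 18 genes of glycolysis and lactate transport 13 were higher and 2 lower, with a smaller median of 0.44. The leading 3 were the glycogen phosphorylase Pygb (2.94, SE 0.06), the phosphofructokinase Pfkm (1.65, SE 0.08) and the glucose transporter Slc2a1 (1.39, SE 0.13). Of 5 other gap junction genes 1 was higher, the scaffold Tjp1 (0.92, SE 0.06), and 2 were lower. Gjb1, a connexin of oligodendrocytes (-0.52, SE 0.53), was not called. No gene of the 5 lists was called by genotype in astrocytes. An unadjusted p under 0.05 was reached by Kcnk2 (0.51, SE 0.22), Gjc3 (0.52, SE 0.24) and Pfkm (-0.31, SE 0.13), each with an edgeR adjusted p = 1.00. They were 1 of 11 potassium and ion genes, 1 of 2 gap junction genes and 1 of 18 glycolysis genes tested by genotype. None of 13 glutamate and GABA and 11 endfoot and water genes reached it, and 2.45% of all genes did. With the assumed pairs as a block 5 genes of the lists reached it, beside 5.62% of all genes. They were 3 of the 11 in the potassium and ion list and 2 of the 18 in the glycolysis list, and none was called.

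Over the 48 sums of class and library, the genes most like the mean profile of the 9 included Ndrg2 (Pearson's r 0.97), Mfge8 (0.96), S1pr1 (0.95), Bmpr1a (0.95), Clu (0.94), Fam107a (0.94), Tank (0.94), Dio2 (0.94) and Atp1b2 (0.94), among 14311 genes compared. The points share libraries and depth, and r is given as a description. Within the 9, Slc1a3 lay closest to the mean profile (0.98) and Kcnj10 farthest (0.76). That mean includes each of the 9 itself, so their r cannot be compared with those of the other genes.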

How the data were processed

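Per the file headers and values, the deposited files hold whole-number UMI counts per gene and barcode, which the authors had limited to called barcodes. The submitters' processing notes name STAR 2.7.9a, STARsolo, Cell Ranger and mm10, with no roles. Whether introns or strand were used in counting is not stated there or in the labels. The members and lists were chosen with earlier results of these data known, and marker thresholds after viewing the score distributions. Named beside the 9 members are the 3 genes of each pathway list highest in astrocytes, the 10 genes most alike in profile and any gene called by genotype in astrocytes. Ddo, Kcnk2 and Gjc3 were named after their values were seen. Some genes that the rule names are not reported here.

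A nucleus needed at least 3 markers of its class and, per 10000 UMIs, 50 marker UMIs for astrocytes (15 to 80 for other classes). No doublet caller was run, and leaving out mixed nuclei took its place. Near the astrocyte threshold, 101 nuclei lay within 25% above and 392 within 25% below. Endothelial, mural and fibroblast-like nuclei fell under 30 in some library and were only described. Counts were summed per library and class and tested in edgeR 4.0.16 (R 4.3.3) by the quasi-likelihood test, with filterByExpr (minimum count 10), TMM scaling, a model of sex and genotype, or library and class, and Benjamini-Hochberg adjustment at 0.05. Fold changes are log2. SEs were derived from the F statistic. DESeq2 1.42.0 was an alternative. CPM were computed from total UMIs. Exact permutation tests were two-sided and not adjusted over the members. Tests of low-UMI barcodes used 6 libraries.

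The labels state litter- and sex-matched pairs without naming them. Same-sex libraries that share a number deviated together (r 0.244 to 0.564 over 8953 genes) and were taken as pairs. Such libraries also share index type, so this does not show that they share a litter. Libraries of the same index type but other sex had r from -0.0225 to 0.229. Methods were tested on simulated data. Positions are those of GENCODE M21 (GRCm38), where 32235 of 32285 identifiers were found. Of 64 pathway genes 63 matched by symbol.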

Additional observations from a re-analysis of the deposited data

Results flagged for a closer look

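In groups of 4 libraries, 7 of 126 groups examined (5.56%) had a library far from the other 3, and chance alone gives about 1 in 20. In astrocytes, Slc1a3 was 2137 CPM in Chd8+/- male 2 against 2384 to 2423 in the other Chd8+/- libraries. In microglia, Glul was 267 CPM in WT male 1 against 133 to 148 in the other WT libraries. In oligodendrocytes, Kcnj10 was 91.1 CPM in WT male 1 (74.0 to 76.6 in the others) and 75.1 in Chd8+/- female 1 (88.0 to 89.2 in the others). In the same class Kcnj16 was 0.0 CPM in WT male 2 (1.95 to 2.22 in the others). Aqp4 was 12.5 CPM there in Chd8+/- male 2 (5.12 to 5.57 in the others). These 2 rest on few counts, as Kcnj16 had 33 UMIs and Aqp4 86 over the oligodendrocytes of all 8 libraries. In mitochondria-rich barcodes, Kcnj10 was 173 CPM in WT female 2 against 155 to 157 in the other WT libraries.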

How the results depend on the processing

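Levels by class kept their direction and their side of the threshold under 195 of 196 alternatives. The exception was Kcnj16 in astrocytes against OPC, 0.22 with a stricter gate.

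In astrocytes no member was called by genotype under any of 19 settings. With the replicate block, 1 gene was called in astrocytes and 6 in the other classes, none a member. Without a count filter 7 genes were called. Log2 changes near 0 turned in sign. Glul became 0.0013 without the sex term, 0.0018 without a count filter and 0.0091 with a stricter gate. Slc1a3 became -0.0097 with mixed barcodes kept, Gjb6 -0.012 and Aldoc -0.055 with a stricter gate, and Kcnj10 0.094 after thinning. Leaving out 1 library at a time gave -0.077 to 0.090 for Glul, -0.157 to 0.101 for Aldoc, -0.011 to 0.054 for Slc1a3, -0.016 to 0.221 for Gjb6 and -0.274 to 0.017 for Kcnj10. It gave 0 to 2 genes called for genotype by class. The difference in astrocyte share became 0.429 points with mixed barcodes kept and ran from -0.442 to 0.0732 with 1 library left out.

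In Gfap-positive astrocytes, thinning to 1000 UMIs called 890 genes and turned Glul to -0.55, Gja1 to -0.27 and Kcnj16 to -1.03. Library totals in place of TMM, added after seeing the data, left 1 member called. Totals at 1000 UMIs left 84 genes and 1 member called, with Slc1a2 at 0.0087 and Kcnj16 at -0.35. With 1 library left out Glul ran from -0.055 to 0.083, Gja1 from -0.11 to 0.065 and Kcnj16 from -0.24 to 0.27.

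Low-UMI barcodes with at most 5% mitochondrial UMIs had 1 member higher than astrocytes in every library, in place of 2, with Glul at -0.058 and Kcnj10 at -0.16. In barcodes over 5% mitochondrial UMIs, added after seeing the data, Kcnj16 was at 0.039. The alternative of under 300 genes was not run. The causes were not tested. In astrocytes Kcnj16 had 479 UMIs in all, the fewest of the 9, then Kcnj10 with 1107 and Aqp4 with 1479.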

Other observations

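Fibroblast-like nuclei, gated by collagens and other markers of the meninges, held several of the members. The 249 nuclei of all 8 libraries, too few per library for a test, were pooled. Slc1a3 had 1155 CPM (exact Poisson 95% interval 1071 to 1243). Gjb6 had 238 CPM (201 to 280), against a pooled level in astrocytes of 129 CPM (123 to 135). Over single libraries Gjb6 ran from 86.3 to 384 CPM in these nuclei. It was below astrocytes only in WT male 2 (86.3 against 127 CPM). Gja1 had 157 CPM (128 to 192), with single libraries from 36.6 to 464, and Glul had 381 CPM (333 to 433). Kcnj10 had 6 UMIs, Aqp4 4 UMIs and Kcnj16 0, which allows up to 6.05 CPM. The 11 astrocyte markers summed to 518 CPM in these nuclei, against 16064 in astrocytes, and 1 of them was at 0. The intervals cover counting error only.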
